A study of Mus musculus with 11 samples.

Results

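Sympathetic ganglia hold noradrenergic nerve cells, satellite glia that wrap their cell bodies, and nerve fibres accompanied by Schwann cells. The genes described here are 8 peripheral myelin genes, Pmp22, Mbp, Prx, Mag, Egr2, Cldn19, Mal and Gjb1, and the transcription factor gene Myrf, followed through ganglia of aged mice with and without apolipoprotein E. They were chosen by gene symbol, with no measured value in the rule itself, but with earlier results of these data known. Every probe set that the platform annotation gives to 1 of these genes alone was kept. Of the 9 listed genes, 8 had such a probe set, with 18 probe sets in all, out of 12393 genes in the table. The expression of Prx was not analysed here. A filter asked for 5 or more arrays above the 40th percentile of the whole table; past it, 5 of the 9 genes were tested, Pmp22, Mbp, Mal, Mag and Myrf, out of 8433 genes.

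RNA was measured on 11 arrays of male C57BL mice kept on normal chow to 78 weeks of age, 6 from mice of the genotype apoE-/- (called Apoe-deficient below) and 5 from wild-type mice. The ganglia were cut from fresh-frozen tissue by laser capture. Apolipoprotein E is a lipid carrier, the genotype is that of the whole animal, and the series title places the work in the exchange between the atherosclerotic aorta and the peripheral nervous system. No label links an array to a particular mouse. Were a mouse to have given several arrays, the p-values would be too small, and they measure in any case only the spread between these samples, some of which may be technical.

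A myelinating Schwann cell wraps a single axon segment in many layers of membrane. Egr2, acting with Sox10, switches on the genes of compact myelin and of the membrane loops beside it. Pmp22 and Mbp encode structural proteins of compact myelin, Mal a proteolipid of myelin membranes, and Mag an adhesion protein of the membrane that faces the axon. Gjb1 encodes connexin 32, the gap junction protein of the uncompacted loops, Cldn19 a tight junction protein of the same loops, and Prx the scaffold protein periaxin. Myrf encodes a membrane-tethered transcription factor known for driving myelin gene expression in oligodendrocytes, the myelinating cells of the brain and spinal cord. Most sympathetic axons are thin and unmyelinated, so myelin in such a ganglion belongs to a minority of fibres. In tissue of mixed cells, fewer cells of a type and less RNA per cell cannot be told apart.

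The arrays lay on the side their labels give: the Apoe signal ran from 7.2 to 268.2 in the Apoe-deficient arrays and from 11830.3 to 19649.2 in the wild-type arrays. Array medians were between 162.25 and 187.65 signal units, and 0 arrays held identical values. Spike-in hybridisation controls were cut at their widest gaps into 3 levels, a number set beforehand. Their mean log2 signals ran from 10.87 to 11.07 in the low level, 11.78 to 12.05 in the middle and 12.48 to 13.22 in the high. The levels were not spread evenly over the groups. The low level held 3 Apoe-deficient arrays, replicates 2, 3 and 4. The middle one held replicate 5 of that group with wild-type replicates 3, 4 and 5, and the high one held the other 4 arrays. Apoe-deficient replicate 1 stood apart in the actin controls, where the probe set at the 3' end of the transcript had 5.16 times the signal of the one at the 5' end, a ratio that rises when transcripts are cut short; the other 10 arrays ran from 1.88 to 3.55. The same ratio of the Gapdh controls ran from 0.849 to 1.499 and was 1.396 in that array, below wild-type replicate 1, which had the highest.

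The first question was whether the myelin genes differed between the genotypes. Of the 4 myelin genes that passed the filter, 0 were called by limma, a moderated linear model, at a Benjamini-Hochberg adjusted p of 0.05, whereas Myrf was called lower in Apoe-deficient ganglia. The background for this count is 163 called genes among 8433, or 1.93%, with 106 (1.26%) higher and 57 (0.676%) lower. The differences below are log2 values of signal + 16, quantile normalised, Apoe-deficient minus wild-type.

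Pmp22 was among the most strongly detected members. Its deposited signal in Apoe-deficient replicates 1 to 6 was 13209, 6534.9, 7665.6, 7828.5, 7236.4 and 7999.8, and in wild-type replicates 1 to 5 it was 9153.7, 8668.3, 7443.7, 9516.5 and 8033. Of the Apoe-deficient arrays, 1 was above all wild-type arrays and 2 were below all of them, so the groups overlapped. The difference was 0.01 (SE 0.095, limma adjusted p = 0.95, 95% interval -0.19 to 0.21).

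Mbp, which encodes myelin basic protein, varied far more between arrays. On its probe set of highest mean, 1433532_a_at, the Apoe-deficient signals were 15910.6, 6188.5, 4721.5, 4337.7, 4555 and 4041.4 and the wild-type signals 7678.6, 6353.3, 4833.6, 9490.3 and 6303.5. Apoe-deficient replicate 1 was the highest of all 11 arrays, wild-type replicate 4 the second, and 4 of the other Apoe-deficient arrays lay below every wild-type array. The difference was -0.21 (SE 0.25, limma adjusted p = 0.66, 95% interval -0.73 to 0.32). Without Apoe-deficient replicate 1 it was -0.42 (SE 0.16, adjusted p = 0.13), still not called.

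Mal followed the same pattern at a lower signal. Its probe set 1417275_at gave 2107.8, 1226.9, 1019.9, 1025, 784.6 and 718.2 in Apoe-deficient ganglia and 1269.4, 860.7, 952.2, 1417.6 and 1065 in wild-type ganglia. The 2 highest arrays were again Apoe-deficient replicate 1 and wild-type replicate 4, and the groups overlapped. The difference was -0.06 (SE 0.23, limma adjusted p = 0.90, 95% interval -0.54 to 0.42), and -0.26 (adjusted p = 0.32) without Apoe-deficient replicate 1. A second Mal probe set, 1432558_a_at, gave 0.02 (adjusted p = 0.95 over all 20380 single-gene probe sets).

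Mag gave 349.9, 199.4, 190.7, 268.1, 242.6 and 234 in Apoe-deficient ganglia and 285.2, 207.3, 249.9, 289.6 and 246.4 in wild-type ganglia. Apoe-deficient replicate 1 and wild-type replicate 4 were once more the highest of their groups, within a narrower range. The difference was -0.06 (SE 0.16, limma adjusted p = 0.86, 95% interval -0.39 to 0.28).

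**Figure D1:**
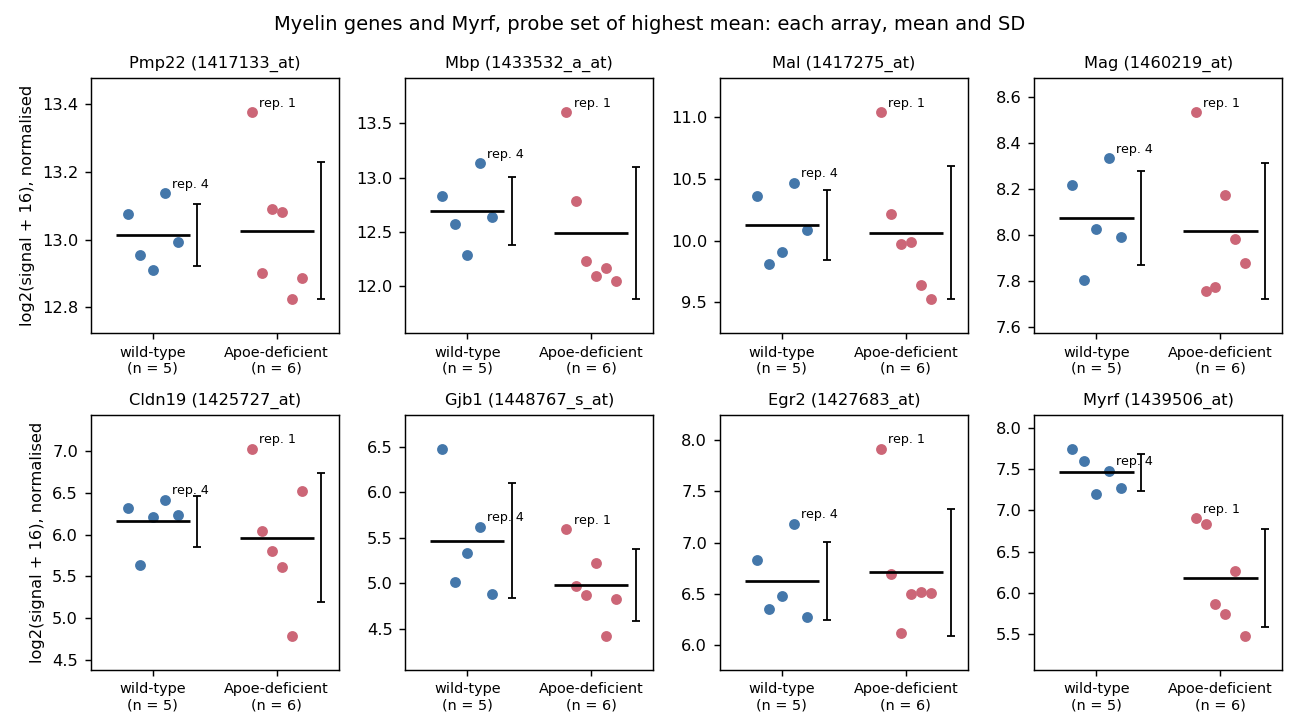
Normalised log2(signal + 16) of each member gene on its probe set of highest mean, with wild-type arrays as blue points, Apoe-deficient arrays as red points, the group mean as a horizontal line and the SD as the bar beside it; Apoe-deficient replicate 1 and wild-type replicate 4 are labelled. The myelin genes overlap between the groups, with replicate 1 highest among the Apoe-deficient arrays, whereas all 6 Apoe-deficient Myrf values (mean 6.18) lie below the 5 wild-type values (mean 7.46).

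The regulator Egr2 and the junction genes Cldn19 and Gjb1 did not pass the filter and were compared in a fit of all 20380 single-gene probe sets without it, in which 156, or 0.765%, were called, 44 of them (0.216%) lower. Egr2 on probe set 1427683_at gave 218.3, 81.4, 45.8, 74.7, 80.1 and 84.2 in Apoe-deficient ganglia and 103.7, 68.8, 78.5, 117.2 and 67.8 in wild-type ganglia. Apoe-deficient replicate 1 had more than 2 times the signal of any other array of its group, and wild-type replicate 4 was the highest of its own. The difference was 0.08 (SE 0.29, adjusted p = 0.91), and that of the second Egr2 probe set, 1427682_a_at, was -0.20 (SE 0.51, adjusted p = 0.88). Cldn19 signals were 107.3, 45.8, 33.9, 32.7, 12.2 and 85.3 against 69, 35.4, 62.1, 60.5 and 65.2, so the wild-type values lay within the Apoe-deficient range. Its difference was -0.20 (SE 0.33, adjusted p = 0.80). Gjb1 was the most weakly detected member, and its probe sets disagreed in sign: 1448767_s_at gave -0.48 (SE 0.28, adjusted p = 0.41) and 1448766_at gave 0.20 (SE 0.30, adjusted p = 0.78). On 1448766_at, 10 of the 11 arrays had signals between 1.6 and 8, and Apoe-deficient replicate 1 had 51.7. At such signals these arrays could not show small differences.

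**Figure D2:**
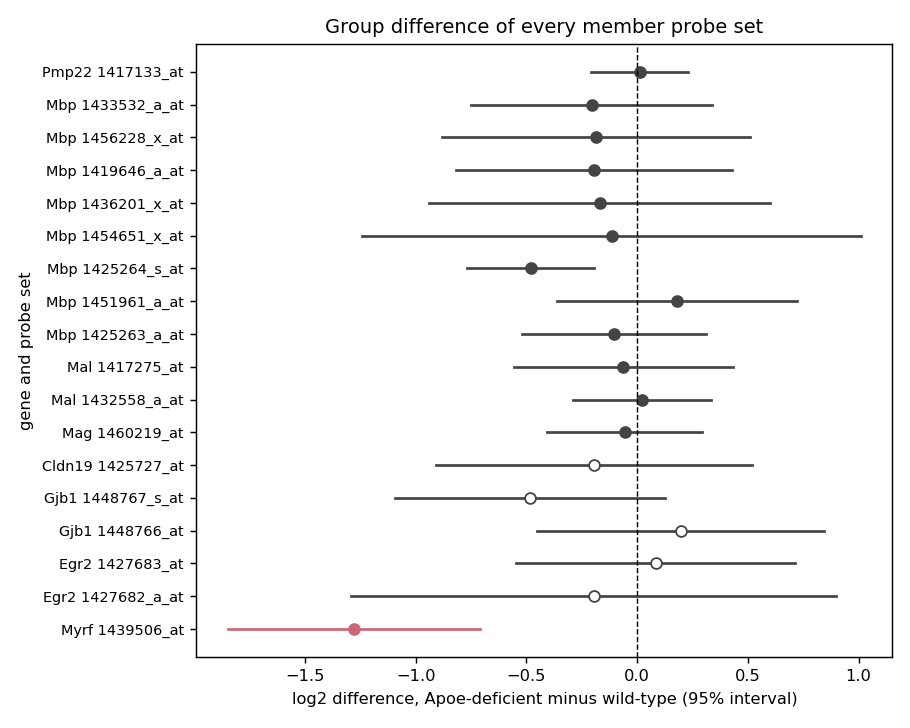
Log2 difference, Apoe-deficient minus wild-type, of all 18 member probe sets from the fit without a filter, with the 95% interval as a line; open points mark probe sets of genes that did not pass the filter. Only the Myrf interval, -1.85 to -0.71, belongs to a called probe set; the Mbp probe set 1425264_s_at also has an interval below 0, -0.77 to -0.20, but an adjusted p of 0.12.

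The Mbp probe sets did not behave alike. Mbp has 8 single-gene probe sets, and names ending in _x_at, _s_at or _a_at mark sets whose probes can match more than 1 transcript or related sequences. Of the 7 besides 1433532_a_at, 4 followed it closely over the 11 arrays after group means were removed, with r of 0.96 for 1454651_x_at, 0.97 for 1436201_x_at, 0.98 for 1456228_x_at and 0.97 for 1419646_a_at, and 1451961_a_at followed with 0.83. The remaining 2 did not: r was 0.11 for 1425263_a_at and 0.03 for 1425264_s_at. These correlations describe probe sets of 1 gene on the same arrays.

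The probe set 1425264_s_at had signals of 547.9, 549.1, 422.2, 431.5, 527.6 and 693.6 in Apoe-deficient ganglia and 793, 849.7, 762.8, 646.5 and 636.6 in wild-type ganglia. Only Apoe-deficient replicate 6 reached into the wild-type range, and Apoe-deficient replicate 1 was not high. Its log2 difference was -0.48 (SE 0.13), with an unadjusted p of 0.0029 and a limma adjusted p of 0.12 over all 20380 probe sets, so it was not called. The other 7 Mbp probe sets had log2 differences from -0.21 to 0.18, all with adjusted p of 0.72 or more in that fit. Which Mbp transcripts each probe set reads was not tested here.

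Myrf was lower in Apoe-deficient ganglia. Its only probe set, 1439506_at, gave 96.6, 91.3, 35.8, 37.4, 63.3 and 33.2 in Apoe-deficient ganglia and 202.4, 180, 136.8, 150.1 and 146.1 in wild-type ganglia, or 59.6 ± 28.8 (SD, n = 6) against 163 ± 27.3 (SD, n = 5). The highest Apoe-deficient value was below the lowest wild-type value. On the log2 scale the means were 6.18 ± 0.59 (SD, n = 6) and 7.46 ± 0.23 (SD, n = 5), a difference of -1.28 (SE 0.26, limma adjusted p = 0.024, 95% interval -1.84 to -0.71). An exact two-sided permutation test of the log2 means over the 462 splits of the arrays gave p = 0.0065. That p is not adjusted for the genes tested. Groups without overlap were found for 250 of the 8433 genes, or 2.96%. Myrf is among the 8433 only because its 5 wild-type arrays exceeded the filter, with all 6 Apoe-deficient arrays below it. The missing overlap and the permutation p are therefore no further support for the call.

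The Myrf call rests on a weak signal. Myrf exceeded the filter in exactly 5 arrays, the 5 wild-type ones, so it was tested only because the group in which it is high carried it past the filter. Without any filter its adjusted p over 20380 probe sets was 0.044. Apoe-deficient replicates 2, 3 and 4, all of the low hybridisation control level, had 91.3, 35.8 and 37.4, and with that level as a block the difference was -1.30 but the adjusted p was 0.17, an alternative in which 45 genes were called in place of 163. In the filtered fit, leaving out Apoe-deficient replicate 3 gave an adjusted p of 0.062 and leaving out replicate 4 gave 0.052. In the unfiltered fit, the adjusted p was under 0.05 in 2 of 11 such fits, those without Apoe-deficient replicate 1 or 2. The sign was negative in every one of these fits.

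The second question was how the members varied between arrays of 1 genotype. Mbp, Myrf and Mal were among the more variable of the genes tested: 6.04% of the 8433 genes had a within-group SD as large as that of Mbp (0.50 on the log2 scale), 7.65% one as large as that of Myrf (0.46), and 8.91% one as large as that of Mal (0.45). Mag (0.26) and Pmp22 (0.16) were not, with 42.9% and 81.3% of genes as variable. Among all single-gene probe sets, without the filter, 18.6% were as variable as Mbp, 22.5% as Myrf and 24.8% as Mal. Myrf was below the filter in every Apoe-deficient array, the group in which its spread was larger. A test of whether the spread differed between the genotypes, limma on absolute deviations from the group mean, called 0 of the 5 members. The background of that test was 2 of 8433 genes, or 0.0237%, and 794 genes, or 9.42%, at an unadjusted p under 0.05. At that unadjusted level 1 member, Myrf, passed, with a mean absolute deviation larger by 0.33 log2 units in Apoe-deficient ganglia (limma adjusted p = 0.40), and the difference for Mbp was 0.26 (adjusted p = 0.60). The number of arrays limits what this test can call.

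In most myelin genes the same array was at the top of each group. On the normalised scale and the probe set of highest mean, Apoe-deficient replicate 1 was the highest of its 6 arrays for all 7 myelin genes measured, and wild-type replicate 4 the highest of its 5 for 6 of 7, Gjb1 being the exception. Over all 17 myelin probe sets each of these arrays was highest in 14, and both were in 13. Among the 8433 genes tested, Apoe-deficient replicate 1 was highest for 25%, wild-type replicate 4 for 20.1%, and both for 3.84%. The 2 arrays were singled out by the high values of the members themselves. The shares over all genes are therefore a background and no test of the members. The probe sets of a gene share its transcripts, and the genes share the arrays, so these counts are not independent observations.

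The size of the excess differed between members. Against the mean of the other 5 Apoe-deficient arrays, replicate 1 was higher in Mbp by 1.34 log2 units, or 2.54-fold, in Mal by 1.17, in Mag by 0.62 and in Pmp22 by 0.42. Among the weakly detected members it was higher by 1.44 and 2.39 on the Egr2 probe sets 1427683_at and 1427682_a_at, by 1.28 in Cldn19, and by 1.83 and 0.74 on the Gjb1 probe sets 1448766_at and 1448767_s_at. The highest excess among the member probe sets was that of Mbp 1454651_x_at, with 6962 against 639 to 1127.9 in the other Apoe-deficient arrays, a log2 excess of 2.96. Wild-type replicate 4, set against the other 4 wild-type arrays, gave 0.55 for Mbp, 0.43 for Mal, 0.32 for Mag, 0.15 for Pmp22 and 0.70 for Egr2 on 1427683_at, and 1.60 on Mbp 1454651_x_at. Probe sets of 1 gene differed here: the second Mal set, 1432558_a_at, was only 0.0092 higher in Apoe-deficient replicate 1 and 0.14 higher in wild-type replicate 4, and the Mbp sets 1425263_a_at and 1425264_s_at were 0.062 and 0.12 higher in the first array and stood at 0.46 and -0.20 in the second. Myrf was 0.87 higher in Apoe-deficient replicate 1 and 0.02 higher in wild-type replicate 4.

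**Figure D3:**
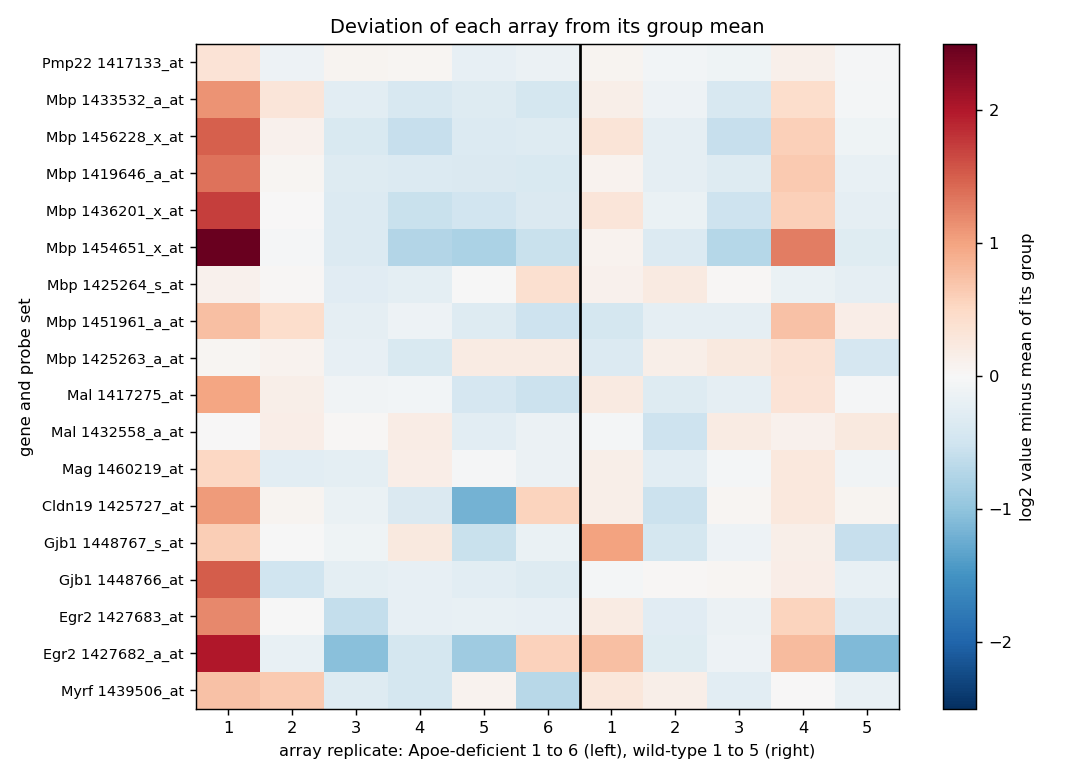
Deviation of each member probe set from its group mean in log2 units, with probe sets as rows and the 11 arrays as columns, Apoe-deficient first; red is above and blue below the group mean. The columns of Apoe-deficient replicate 1 and wild-type replicate 4 are above the group mean in most rows, and the rows of Mbp 1425263_a_at and 1425264_s_at depart from the other Mbp rows.

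**Figure D4:**
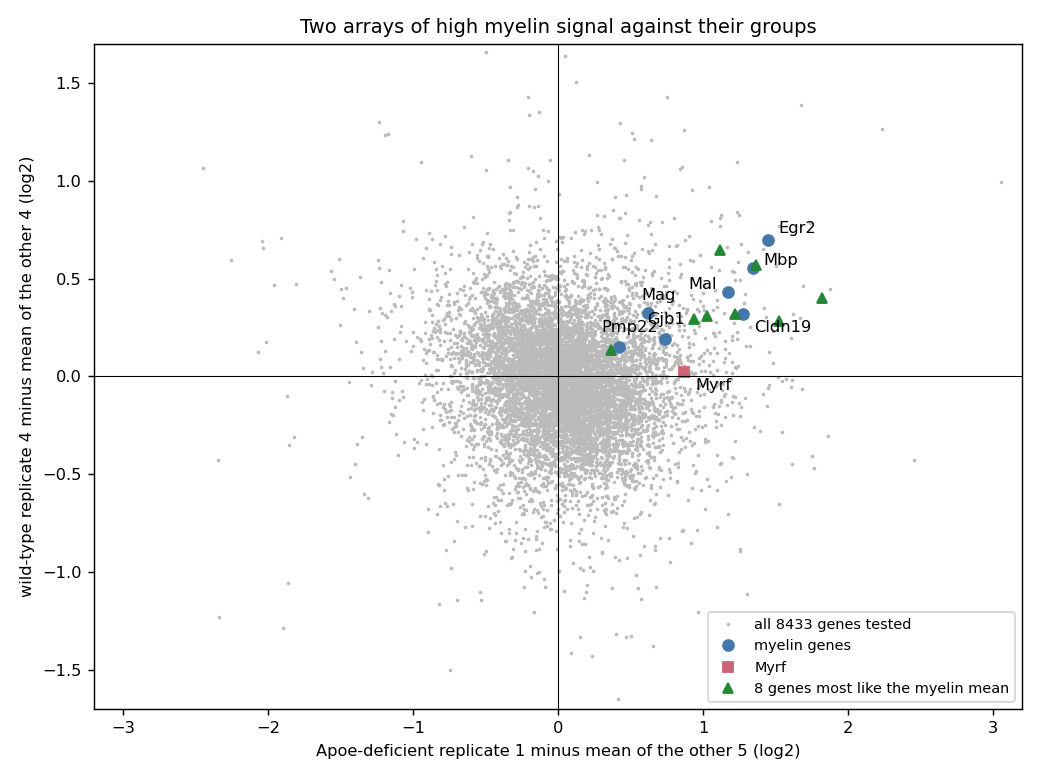
Excess of Apoe-deficient replicate 1 over the other Apoe-deficient arrays (horizontal axis, log2 units) against the excess of wild-type replicate 4 over the other wild-type arrays (vertical axis, log2 units), with all tested genes in grey, the myelin genes in blue, Myrf in red and the 8 genes most like the mean of the tested myelin genes as green triangles. Mbp lies at 1.34 and 0.55 and Mal at 1.17 and 0.43, while Myrf lies at 0.87 and 0.02; 9 genes fall outside the plotted range.

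Mbp served as the reference for a test of this shared variation, on log2 values with the group mean removed and with permutation within groups, two-sided, over 11 arrays and 7 genes with Benjamini-Hochberg adjustment. The share of all genes tested with as high an r with Mbp was not counted. No relation given here is therefore shown to be particular to the members. Mal followed Mbp most closely, with Pearson r = 0.94 (permutation p = 0.00064, adjusted 0.0045) and Spearman rho = 0.87 (permutation p = 0.0012, adjusted 0.0084). Without Apoe-deficient replicate 1 and wild-type replicate 4, the arrays farthest from the median of Mbp, r was 0.75. Egr2 gave r = 0.89 (permutation p = 0.004, adjusted 0.011) but rho = 0.55 (permutation p = 0.094, adjusted 0.16), and r was 0.44 without the 2 arrays, so that relation rests on them. Pmp22 had r = 0.75 (permutation p = 0.033, adjusted 0.058; rho = 0.62, permutation p = 0.071, adjusted 0.16) and 0.09 without them, and it too rests on them. Mag (r = 0.65, adjusted permutation p = 0.084), Cldn19 (r = 0.61, adjusted 0.13) and Gjb1 (r = 0.52, adjusted 0.084) did not pass the threshold, with rho of 0.31, 0.43 and 0.45 (adjusted permutation p of 0.38, 0.27 and 0.24). Without the 2 arrays their r was -0.23, 0.13 and 0.31.

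Myrf followed Mbp within the groups although only Myrf was called between the genotypes. Pearson r was 0.81 (permutation p = 0.0045, adjusted 0.011), Spearman rho 0.80 (permutation p = 0.0071, adjusted 0.025), and r was 0.86 without Apoe-deficient replicate 1 and wild-type replicate 4. Leaving out each array in turn gave r from 0.72 to 0.85. In Apoe-deficient ganglia the arrays with the highest Mbp, replicates 1 and 2, also had the highest Myrf, 96.6 and 91.3. All Myrf values of that group lay below the filter, and their spread was the larger. In wild-type ganglia replicate 3 was lowest in both genes. The wild-type array of highest Mbp, replicate 4, had a Myrf of 150.1, below replicates 1 and 2 with 202.4 and 180. The relation was not tested in either group alone. With Mbp as a covariate, a fit added after the data had been seen, the Myrf difference between genotypes was -1.12 (SE 0.21, limma adjusted p = 0.014). That fit used the filtered genes, which Myrf joined only through the wild-type arrays, and it was not run without the filter.

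**Figure D5:**
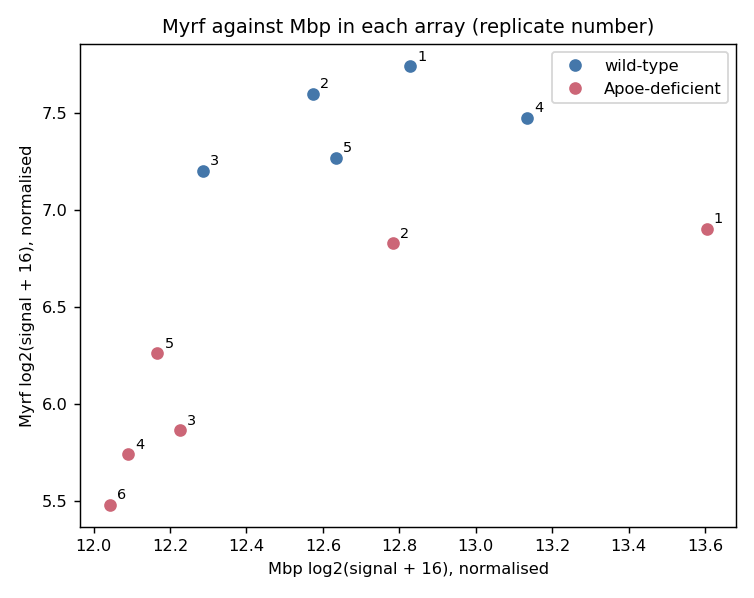
Log2 value of Myrf (vertical axis) against that of Mbp on 1433532_a_at (horizontal axis) for the 11 arrays, as normalised log2(signal + 16), wild-type in blue, Apoe-deficient in red, each point marked with its replicate number. With group means removed the 2 genes have r = 0.81 over the 11 arrays, and the Apoe-deficient points, mean 6.18, lie below the wild-type points, mean 7.46.

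Other genes of Schwann cells and myelin were read from lists. Of 28 other Schwann cell and compact myelin genes, 18 were tested, with 0 called higher and 1 lower, and their median log2 difference was -0.09 against -0.04 over all genes tested. The called gene was Cadm3, which encodes a cell adhesion protein found mainly on the axon side of the internode, at -0.84 (SE 0.19, limma adjusted p = 0.036). Apoe-deficient replicate 1 was the highest of its group for 13 of the 18 and wild-type replicate 4 for 5. The excess of replicate 1 over the other Apoe-deficient arrays ran from 3.05 log2 units in Ncmap, a gene of non-compact myelin, down to -0.44 in Cd9. Tspan2 (-0.41) and Cadm3 (-0.06) were also below 0. The summed signal of this list ran from 20965.5 to 33319 in Apoe-deficient arrays, replicate 1 being the highest, and from 24289 to 31169.5 in wild-type arrays.

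The regulatory and signalling lists gave 0 calls. Of 24 Schwann cell transcription factors and Egr2 partners, 20 were tested with a median of -0.14, and the smallest p-values belonged to Srebf2 (-0.32), a regulator of sterol synthesis, Yap1 (0.37) and Id4 (-0.68), with adjusted p from 0.18 to 0.24. Of 24 genes of signalling from axon to Schwann cell, such as the neuregulin pathway, 20 were tested with a median of -0.0020, and Mtor (-0.42, adjusted p = 0.076), the kinase gene Akt1 (-0.40, adjusted p = 0.087) and Bace1 (-0.52, adjusted p = 0.23), whose protease cleaves neuregulin, led by p. Of 14 partners of Myrf and regulators of oligodendrocytes, 5 were tested, led by Sox4 (-0.59), Chd8 (-0.33) and Zfp24 (0.14), with adjusted p of 0.14 or more.

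Enzymes of myelin lipids and disease genes gave 0 calls as well. Of 22 lipid enzymes, 18 were tested with a median of -0.13, led by Fasn, the fatty acid synthase gene, at -0.87 (SE 0.25, adjusted p = 0.084), the ceramide synthase gene Cers2 at -0.33 (adjusted p = 0.090) and the elongase gene Elovl6 at -0.46 (adjusted p = 0.12). Of 16 further genes of inherited demyelinating neuropathy, 11 were tested with a median of 0.0021, led by Mtmr2 (0.47), Litaf (0.31) and Fbln5 (-0.16), with adjusted p of 0.12 or more. Of 20 genes of immature and repair Schwann cells, 13 were tested with a median of -0.13. In that list 0 were higher and 1 was lower, the adhesion molecule gene Ncam1 at -0.45 (SE 0.11, limma adjusted p = 0.046), which neurons also express.

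Markers of other cell types were set beside the members. Of 16 oligodendrocyte markers, 11 had a probe set and 2 were tested, Aspa (0.19, adjusted p = 0.61) and Cldn11 (1.49, adjusted p = 0.065), both of which other cells express. The lineage-defining markers had low signals, at most 22 for Mog, 35.1 for Mobp and 17 for Olig2 in any array. Other markers of that list were higher and in the signal range of Myrf: Ugt8a reached 268.2 in Apoe-deficient replicate 1, Plekhh1 ran from 59.7 to 174.7, Hapln2 from 50.3 to 118, and Klk6 reached 91.3. Of 15 satellite glia markers 12 were tested with 0 called, led by Aldoc (-0.53, adjusted p = 0.055), Ttyh1 (-0.33) and Ednrb (-0.37), and Apoe-deficient replicate 1 was highest for 7 of them and wild-type replicate 4 for 0. Of 18 sympathetic neuron markers 15 were tested with 0 called, led by Gata2 (-0.46), Gata3 (0.39) and Phox2a (-0.50), and Apoe-deficient replicate 1 was highest for 2 and wild-type replicate 4 for 1. Of 18 perineurial and endoneurial fibroblast markers 10 were tested with 0 called and a median of 0.32, led by Col3a1 (0.79), Dcn (0.56) and Cd34 (0.42), and each of the 2 arrays was highest for 5. Of 13 macrophage markers all were tested and 10 were higher in Apoe-deficient ganglia, with a median of 0.90. The 3 of smallest p were C1qc (1.43, adjusted p = 0.00034), Lyz2 (1.19) and C1qa (1.03), and the other 7 were Ctss, Mpeg1, Cd68, Mrc1, Tyrobp, C1qb and Csf1r.

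Fat markers were high in Apoe-deficient replicate 1 as a sum, but not in wild-type replicate 4. Of 16 adipocyte markers 13 were tested with 0 called and a median of -0.77, led by Cox8b (-1.66), Pnpla2 (-0.84) and Cidea (-1.23). Their summed signal ran from 6264.5 to 36828.3 in Apoe-deficient arrays, with replicate 1 at the top, and from 19449.4 to 52586.2 in wild-type arrays, with replicate 4 at 29616.5, rank 3 of 5. Apoe-deficient replicate 1 was highest of its group for 7 of the 13, but had the lowest Ucp1 signal, 62, and its Cidea (401.6) and Cox8b (445.4) lay inside the range of its group. Of 12 mesothelial and epithelial markers 2 were tested with 0 called, Cdh1 (-0.47) and Krt8 (0.10). In Apoe-deficient replicate 1 the summed signal ranked first of 6 for every list except the neuron list, where it ranked 2, and the macrophage list, where it ranked 4. The parts of cell makeup, of the 3' to 5' signal ratio and of the hybridisation level in the high myelin values of that array, and in the Myrf difference, were not tested.

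By Pearson r with the mean of the 4 tested myelin genes over 11 arrays with group means removed, Cryab (0.98), Reln (0.97), Gnl2 (0.97), Dhh (0.95), Efhd1 (0.94), Plekhb1 (0.93), Plekha4 (0.93) and Lama4 (0.93) were the most alike of the genes tested. The members, and genes with only a predicted or clone-style symbol, were left out of this ranking. The arrays share their depth and tissue, so these values are descriptions. Without Apoe-deficient replicate 1 and wild-type replicate 4, r stayed at 0.94 for Cryab and Reln and at 0.89 for Dhh, and was 0.58 for Lama4. Like the tested myelin genes, 0 of these 8 were called between genotypes. The difference was 0.05 (SE 0.26) for Cryab, 0.04 (SE 0.23) for Reln, which encodes the secreted glycoprotein reelin, and -0.10 (SE 0.20) for Dhh.

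The promoters of the members were examined because most myelin members were highest in the same arrays. RefSeq windows of the 250 bases before each transcript start, on GRCm38.p6, were at hand for 7 of the 9 genes, all but Mbp and Myrf, with 20 windows for alternative starts. They were searched on both strands for a SOX core (ACAAAG), an EGR core (GTGGGNG) and a MYRF core (CTGGNAC), spellings chosen after the expression values had been seen, and matches of different motifs did not overlap in the windows printed. Of all 32851 windows of this length in the table, 16.5% held the SOX core, 28.1% the EGR core and 16.1% the MYRF core. Of the 20 member windows, 4 held the SOX core, 6 the EGR core and 5 the MYRF core. By gene, Gjb1 and Mag had a SOX core in at least 1 window, Cldn19, Egr2, Gjb1, Mag and Prx an EGR core, and Gjb1, Mag and Pmp22 a MYRF core. The N in a spelling allowed any base. The MYRF core matches read CTGGGAC in Gjb1 and Pmp22, and CTGGCAC or, for the opposite strand, GTCCCAG in Mag. Whether the MYRF protein accepts each of these spellings was not tested. Windows of alternative starts can overlap and share a match, and the share of all genes with a match was not counted. These counts by gene therefore cannot be set against the shares of windows. A match is a description of letters and says nothing of binding.

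Windows of 3 members are printed 5' to 3' on the gene's strand with the matches in capitals, because they cover the range from 3 kinds of match to 1. The Gjb1 window was picked among its alternative starts as that with most matches, and its other windows held 1 or 0. For Mag and Cldn19 the most upstream start was taken. Windows with 0 matches, as in Egr2, Mal and Pmp22, are not printed. Gjb1 at chrX:101383482-101383731 (plus strand) holds all 3 kinds, Mag at chr7:30914923-30915172 (minus strand) the SOX and MYRF cores, and Cldn19 at chr4:119255191-119255440 (plus strand) a single EGR core.
Gjb1: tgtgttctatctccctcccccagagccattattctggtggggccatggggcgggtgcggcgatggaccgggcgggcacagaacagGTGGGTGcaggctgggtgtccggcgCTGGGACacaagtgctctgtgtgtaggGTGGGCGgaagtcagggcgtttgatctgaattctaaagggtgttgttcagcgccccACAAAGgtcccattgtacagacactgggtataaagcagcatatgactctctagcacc
Mag: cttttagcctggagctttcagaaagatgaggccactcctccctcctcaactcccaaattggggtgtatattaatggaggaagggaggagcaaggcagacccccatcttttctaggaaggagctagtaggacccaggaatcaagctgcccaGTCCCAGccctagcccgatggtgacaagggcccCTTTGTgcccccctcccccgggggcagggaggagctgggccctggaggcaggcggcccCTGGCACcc
Cldn19: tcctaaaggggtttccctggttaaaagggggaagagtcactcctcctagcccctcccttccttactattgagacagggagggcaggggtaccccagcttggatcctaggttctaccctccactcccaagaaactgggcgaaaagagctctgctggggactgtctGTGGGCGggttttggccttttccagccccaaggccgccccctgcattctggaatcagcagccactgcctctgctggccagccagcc
Counted from the transcript start, the matches of Gjb1 began at -165 and -113 for the EGR core, -140 for the MYRF core and -57 for the SOX core. Those of Mag began at -100 and -9 for the MYRF core and at -67 for the SOX core, and that of Cldn19 began at -86. The Mag matches at -100 and -67 lie on the opposite strand and are printed as GTCCCAG and CTTTGT. All 7 myelin genes measured, these 3 among them, had their top probe set highest in Apoe-deficient replicate 1 within its group. Mal, also among the 7, had 0 matches in its window. Over all genes tested that array, singled out by the members' own values, was the highest of its group for 25%.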

How the data were processed

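The deposited table holds linear probe set signals (intensity values), 1 column per array. The submitters' processing notes name GCOS 1.4 as the tool the authors used, with the algorithm behind the signals not given in the sources used here. The 2% trimmed mean was near 500.2 on all 11 arrays, so a common scaling had been applied. The number of arrays limits precision.

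The table has 22690 probe sets; 64 controls were dropped. Of the 22626 others, 20380 carried 1 gene symbol in the platform annotation, 691 several and 1555 none. Signals were taken to log2(signal + 16), which understates the change of low genes, and quantile normalised. Where several single-gene probe sets passed the filter (log2 6.98 in at least 5 arrays), that of highest mean stood for the gene. Tests used limma 3.58.1 in R 4.3.3, two-sided with Benjamini-Hochberg adjustment, and were tested on simulated data; permutation tests drew 1e+05 resamples or were exact. Figures used matplotlib 3.10.9. Promoter windows came from the RefSeq table of GRCm38.p6.

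The members and lists were chosen with earlier results of these data known. Named were all members, the called genes of each list or otherwise the 3 of smallest p, the 8 genes most like the tested myelin genes and the 5 most like Myrf; Ncmap, Cd9, Tspan2 and the oligodendrocyte and fat markers given by signal were named after their values were seen. Prx, the planned reference of the correlations, lacked a single-gene probe set and was replaced by Mbp. Replicate numbers were checked for pairing: deviations of same-numbered arrays correlated from -0.18 to 0.15, so arrays were not paired. Alternatives covered normalization, pseudocount, filter, probe set rule, variance model, array weights, hybridisation level, a replicate block and arrays left out.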

Additional observations from a re-analysis of the deposited data

Results flagged for a closer look

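Of the 36 sets of values tested (18 member probe sets in each genotype), 7 held an array far from the others of its group by Dixon's test at 95%, and chance flags about 1 in 20. In 6 of the 7 it was Apoe-deficient replicate 1, at the high end. On the log2 scale its value was 12.6 on Mbp 1419646_a_at (next highest 11.3), 12.7 on Mbp 1436201_x_at (11.0), 12.6 on Mbp 1454651_x_at (10.1), 13.3 on Mbp 1456228_x_at (11.9), 7.91 on Egr2 1427683_at (6.70) and 6.20 on Gjb1 1448766_at (4.47). The remaining flag was the low Cldn19 value of wild-type replicate 2, 5.63 with 6.21 next. Over all 8433 genes, each on its probe set of highest mean past the filter, Apoe-deficient replicate 1 was a high outlier for 1.19%. Some array of either group was an outlier for 11.5%. None of the 7 flagged probe sets was among those 8433, so the flags cannot be set against these shares. The Mbp probe sets share transcripts and all sets share the arrays, so the flags are not independent.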

How the results depend on the processing

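The number of genes called, 163, moved with the treatment of single arrays: 668 with array weights (290 higher, 378 lower), 45 with the hybridisation level as a block, 24 without the 3 low-level arrays, 2 within the high-level arrays, 486 (228 higher, 258 lower) without Apoe-deficient replicate 1 and wild-type replicate 4 together, and 75 to 267 with 1 array left out. Among the list genes 12 were called, and 32, 4, 4, 0 and 24 in the same settings, or 5 to 18 with 1 array left out. Of the member genes 1, Myrf, was called, and 0 with a filter at the 60th percentile, the level block, without the low arrays, within the high level or without the 2 arrays, and 0 to 1 with 1 left out; of the member probe sets 1 was called, and 0 with a pseudocount of 1 (Myrf -1.52, adjusted p = 0.053) and 0 to 1 with 1 left out. The Myrf difference was -1.30 with the level block, -1.23 without the low arrays (adjusted p = 0.17 in both), -1.46 within the high level (adjusted p = 0.45), and -1.42 to -1.14 with 1 array left out; Myrf exceeded the filter in too few arrays to be tested in the 5 fits without a wild-type array, at the 60th percentile and without the 2 arrays, and in the last case the unfiltered probe set fit gave -1.41 (adjusted p = 0.029), still called. Correlations with Mbp called for 3 members became 1 without the 2 arrays and 1 to 5 with 1 left out. The spread test called 0 members under every setting run.

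Differences near 0 changed sign. Pmp22 was -0.060 on the signals as deposited, -0.0090 with array weights, -0.015 with the level block and -0.03 without the 2 arrays. Mal was 0.046 with the replicate block, which left out Apoe-deficient replicate 6, and also 0.046 without that array and with no block. It was 0.20 within the high level and 0.11 with Mbp as a covariate. Mag was 0.055 with the level block, 0.057 without the low arrays, 0.19 within the high level and 0.013 with the covariate. Mbp was 0.16 within the high level, and Egr2 -0.02 without the 2 arrays. With 1 array left out the ranges were -0.058 to 0.052 for Pmp22, -0.26 to 0.046 for Mal, -0.16 to 0.0075 for Mag, -0.16 to 0.22 for Egr2 and -0.41 to 0.039 for Cldn19. The cause of these changes was not tested. With the replicate number as a block, in a fit that left out Apoe-deficient replicate 6, Myrf was -1.14 (limma adjusted p = 0.028), and 1 member was called as before. Without that array and with no block Myrf was also -1.14 (limma adjusted p = 0.029). The fits without 2 arrays, the Mbp reference and the covariate were chosen after seeing the data.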

Other observations

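Members and genes with only a predicted or clone-style symbol were left out here too. The genes most like Myrf over the 11 arrays, with group means removed, were Hspa1a (r = 0.94), a heat shock protein gene, Klrk1 (0.94), a receptor gene of natural killer cells, Phc1 (0.91), Park7 (0.89) and Gle1 (0.87). Without Apoe-deficient replicate 1 and wild-type replicate 4 their r was 0.94, 0.92, 0.86, 0.84 and 0.85. None of these 5 was called between genotypes by limma: Klrk1 had a log2 difference of -0.55 (SE 0.17, adjusted p = 0.10) and Phc1 -0.32 (SE 0.15, adjusted p = 0.24). They share no gene with the 8 most like the tested myelin genes.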
